A study of Mus musculus with 12 samples.

Results

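Immediate early transcription factors are genes whose transcripts appear within minutes of a stimulus because the proteins that switch them on are already in the cell. The 10 genes described here are Fos, Fosb, Fosl1, Fosl2, Jun, Junb, Egr1, Nr4a1, Atf3 and Klf6. No rule on their values selected them, but earlier results of these data were known when the group was proposed. The group is therefore not independent of these arrays, and the counts below describe it. They are 10 of the 18201 genes that a probe set with exactly 1 gene symbol represents, and the brightest probe set on average over the arrays stood for each gene. RNA came from glomeruli, the filtering units of the kidney, of female mice (8 to 10 weeks old), with 1 Affymetrix array per mouse and 3 mice in each of 4 groups. In 129S2SvPAs anti-GBM GN and C57BL6J anti-GBM GN mice, nephrotoxic serum had been injected on days 0, 1 and 2, whereas the treatment label of 129S2SvPAs control and C57BL6J control mice is control. The controls carry the same protocol text and description as the injected mice, so what they received in place of serum is not stated in the sources used here. Kidneys were taken on day 4 and glomeruli were separated on nylon sieves of 100 and 45 µm. The labels of the controls spell the strain 129S2SvPAS, and it is written 129S2SvPAs throughout.

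Fos, Fosb, Fosl1 and Fosl2 encode the FOS family and Jun and Junb the JUN family of leucine zipper proteins. A FOS protein pairs with a JUN protein to form AP-1, which binds DNA at the AP-1 site, and JUN proteins can also pair with each other or with members of the ATF family such as Atf3. Egr1 and Klf6 encode zinc finger proteins that bind GC-rich sites, and Nr4a1 encodes an orphan nuclear receptor, NUR77. In many cell types these genes are switched on through serum response factor and through CREB, which binds the cyclic AMP response element, after growth factors, calcium, stretch or injury, and their transcripts are short-lived.

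Promoter windows show the DNA beside which the measured transcripts begin. RefSeq (GRCm38.p6) held a window of 250 bases before to 50 bases after the annotated start for 8 of the 10 genes. The 5 windows with a match to the core of the cyclic AMP response element are shown, in the direction of transcription, with that core (TGACG, or CGTCA where it lies on the opposite strand) and the TATA box (TATAAA) in capitals.
Fos, chr12:85473640-85473939, + strand: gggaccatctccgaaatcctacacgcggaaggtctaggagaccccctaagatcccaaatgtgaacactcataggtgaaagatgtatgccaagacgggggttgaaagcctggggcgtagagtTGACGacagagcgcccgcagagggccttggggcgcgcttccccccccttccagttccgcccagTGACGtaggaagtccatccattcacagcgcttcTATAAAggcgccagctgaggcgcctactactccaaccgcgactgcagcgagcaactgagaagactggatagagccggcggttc
Fosb, chr7:19309996-19310295, - strand: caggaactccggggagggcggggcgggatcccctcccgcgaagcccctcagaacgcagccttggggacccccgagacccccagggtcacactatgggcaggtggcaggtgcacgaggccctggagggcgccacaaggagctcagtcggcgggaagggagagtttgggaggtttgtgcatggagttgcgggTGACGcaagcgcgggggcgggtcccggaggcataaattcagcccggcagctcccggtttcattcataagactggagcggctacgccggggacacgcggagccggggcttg
Junb, chr8:84978699-84978998, - strand: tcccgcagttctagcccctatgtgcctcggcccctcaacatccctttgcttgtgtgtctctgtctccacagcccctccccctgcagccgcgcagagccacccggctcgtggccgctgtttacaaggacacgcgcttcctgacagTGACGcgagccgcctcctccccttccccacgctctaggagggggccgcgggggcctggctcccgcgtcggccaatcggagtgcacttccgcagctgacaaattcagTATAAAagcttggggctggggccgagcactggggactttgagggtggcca
Nr4a1, chr15:101266596-101266895, + strand: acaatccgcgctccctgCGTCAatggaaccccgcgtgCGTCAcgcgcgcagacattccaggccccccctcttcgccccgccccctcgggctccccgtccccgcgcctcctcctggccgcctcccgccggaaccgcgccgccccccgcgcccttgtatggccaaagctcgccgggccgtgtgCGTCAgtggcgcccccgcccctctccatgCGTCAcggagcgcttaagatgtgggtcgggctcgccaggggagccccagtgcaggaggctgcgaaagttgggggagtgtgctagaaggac
Atf3, chr1:191183284-191183583, - strand: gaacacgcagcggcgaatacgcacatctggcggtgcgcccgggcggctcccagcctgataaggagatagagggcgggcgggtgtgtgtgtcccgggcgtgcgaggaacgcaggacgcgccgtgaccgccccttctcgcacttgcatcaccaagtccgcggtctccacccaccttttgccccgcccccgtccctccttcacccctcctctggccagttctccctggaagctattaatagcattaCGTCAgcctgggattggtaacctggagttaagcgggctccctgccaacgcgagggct
Counted from the annotated start, the cores of Fos began at -129 and -66, and its TATA box at -33. The Nr4a1 window held 4 cores, all on the opposite strand, with first bases at -233, -213, -69 and -40. Fosb and Junb had 1 each, with first bases at -60 and -106, and Atf3 had 1 at -7. The TATAAA of Junb lay at the annotated start itself. The Fosl2, Jun and Klf6 windows had no match to any motif searched. None of the 8 windows held the full cyclic AMP response element TGACGTCA, the AP-1 site TGACTCA, the CArG box of serum response factor or the EGR site GCGTGGGCG, on either strand. Of all 32851 RefSeq windows, 20.8% held the core, which is also part of the full element, 1.79% the full element, 5.2% the AP-1 site, 1.63% the CArG box, 0.612% the EGR site and 13.6% TATAAA. These are matches of letters in short windows, and binding was not measured.

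**Figure D1:**
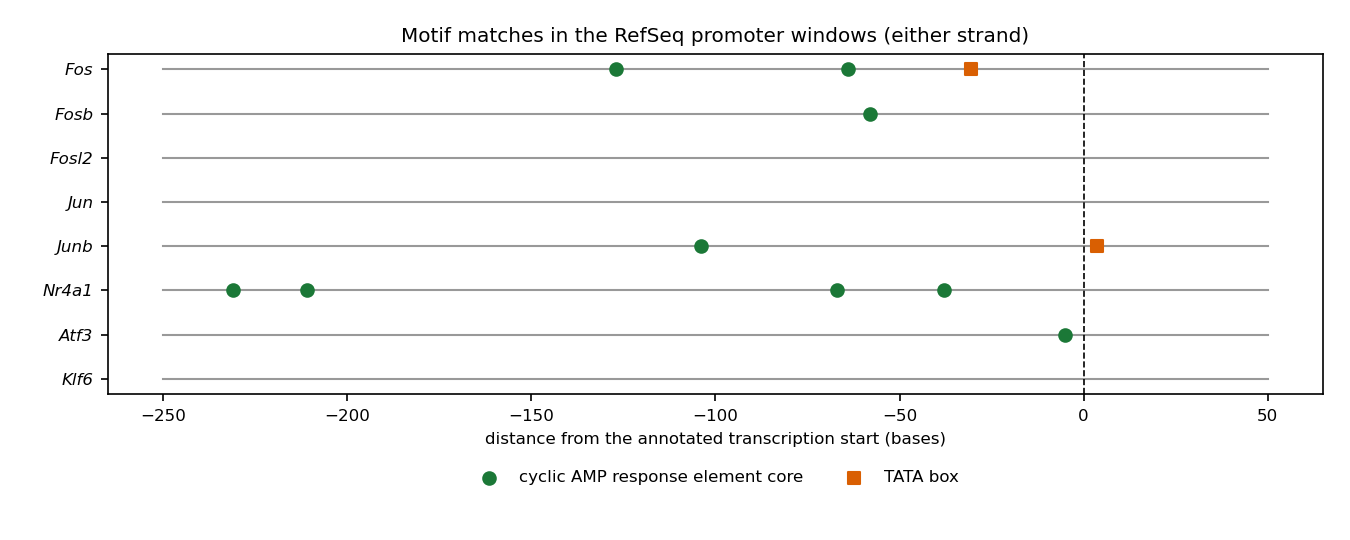
Positions of motif matches in the RefSeq promoter windows of 8 genes, with distance from the annotated transcription start in bases on the horizontal axis and 1 line per gene. Circles mark the core of the cyclic AMP response element, present in 5 genes, and squares mark TATAAA, present in Fos and Junb.

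All values are log2 probe set signals, on which a difference of 1 is a doubling, and a gene was tested if 3 or more arrays read above 3.03, the median of all values, which 11921 genes met. Array medians lay between 2.99 and 3.06. The array of 129S2SvPAs anti-GBM GN replicate 1 was less like its group than other replicates were (Pearson's r across genes 0.974 and 0.973, against 0.994 between replicates 2 and 3). Values without it are given as a range for the tested immediate early transcription factors and for some single results, not for every gene. The markers of podocytes (6), endothelium (7) and mesangium (5), the cells of the glomerulus, that the array held all passed the filter, as did 9 markers of proximal tubule and 6 of later nephron segments (loop, distal tubule, collecting duct). The mean log2 level of the mesangial markers ranged from 8.44 to 8.79 in 129S2SvPAs anti-GBM GN and from 6.91 to 7.20 in 129S2SvPAs controls, and from 8.47 to 9.10 in C57BL6J anti-GBM GN and 7.11 to 7.68 in C57BL6J controls, without overlap in either strain. Of these 5 markers 2 rose in 129S2SvPAs and 1, Tagln, in C57BL6J. Tagln, a smooth muscle actin-binding protein, rose by 5.70 in 129S2SvPAs and 5.29 in C57BL6J and weighs most in that mean. Pdgfrb rose by 0.98 in 129S2SvPAs. Itga8, Gata3 and Agtr1a, with differences of 0.87, 0.26 and -0.15 in 129S2SvPAs, were called in neither strain. Of the endothelial markers Pecam1 and Cdh5 rose in 129S2SvPAs, by 2.67 and 1.71, and Ehd3 fell by 2.56 there and by 1.94 in C57BL6J. Of the podocyte markers 2 rose and 2 fell in 129S2SvPAs. Their mean log2 level ranged from 7.028 to 7.385 in 129S2SvPAs anti-GBM GN and 7.083 to 7.91 in 129S2SvPAs controls. In C57BL6J it ranged from 8.357 to 9.318 in anti-GBM GN and 8.747 to 9.4 in controls. Endothelial marker means ran 9.04 to 9.31, 7.97 to 9.59, 9.48 to 10.13 and 9.49 to 10.3 in these 4 groups, in that order. The proximal tubule mean lay above both on every array, and the share of tubule RNA was not measured. The mean log2 level of the proximal tubule markers ranged from 11.42 to 11.65 in 129S2SvPAs anti-GBM GN arrays and from 12.26 to 12.39 in 129S2SvPAs controls, and from 11.59 to 12.12 in C57BL6J anti-GBM GN and 11.98 to 12.34 in C57BL6J controls. That of 6 platelet markers, with Treml1 below the filter, ranged from 4.09 to 4.55 in 129S2SvPAs anti-GBM GN and from 2.83 to 2.86 in 129S2SvPAs controls, and from 4.82 to 5.63 in C57BL6J anti-GBM GN and 3.00 to 3.61 in C57BL6J controls. That of 10 leukocyte markers, with Itgam, Cd3e and Cd79a below the filter, ranged from 4.12 to 4.53 in 129S2SvPAs anti-GBM GN and 3.97 to 4.66 in 129S2SvPAs controls, and from 4.84 to 5.71 in C57BL6J anti-GBM GN and 4.66 to 5.49 in C57BL6J controls. Of the proximal tubule markers 5 fell in 129S2SvPAs and 1 in C57BL6J. The mean of the markers of later segments ranged from 9.87 to 10.30 in 129S2SvPAs anti-GBM GN and from 10.97 to 11.12 in 129S2SvPAs controls, and from 9.70 to 10.39 in C57BL6J anti-GBM GN and 10.30 to 10.56 in C57BL6J controls. Of these markers 3 fell and 1 rose in 129S2SvPAs and 1, Pvalb, fell in C57BL6J. Of 5 platelet markers tested 2 rose in 129S2SvPAs and 3 in C57BL6J. The part of these cell types in the results was not tested, apart from a fit with the proximal tubule markers as covariate.

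Most of the immediate early transcription factors rose in anti-GBM GN glomeruli of both strains. Of the 10 genes, 8 rose in 129S2SvPAs, where 10.6% of all genes tested rose, and 7 rose in C57BL6J, where 4.78% rose, while Fosb and Fosl1 were not above background. The same 8 and 7 genes had anti-GBM GN values that all lay above the controls of their strain, which 16.4% of all genes tested had in 129S2SvPAs and 13.2% in C57BL6J. Egr1 in 129S2SvPAs, at 6.28-fold, was the largest rise among them and Jun in C57BL6J, at 1.59-fold and short of the threshold, the smallest difference. In bulk glomeruli a greater number of cells with a transcript and more transcript per cell cannot be told apart.

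**Figure D2:**
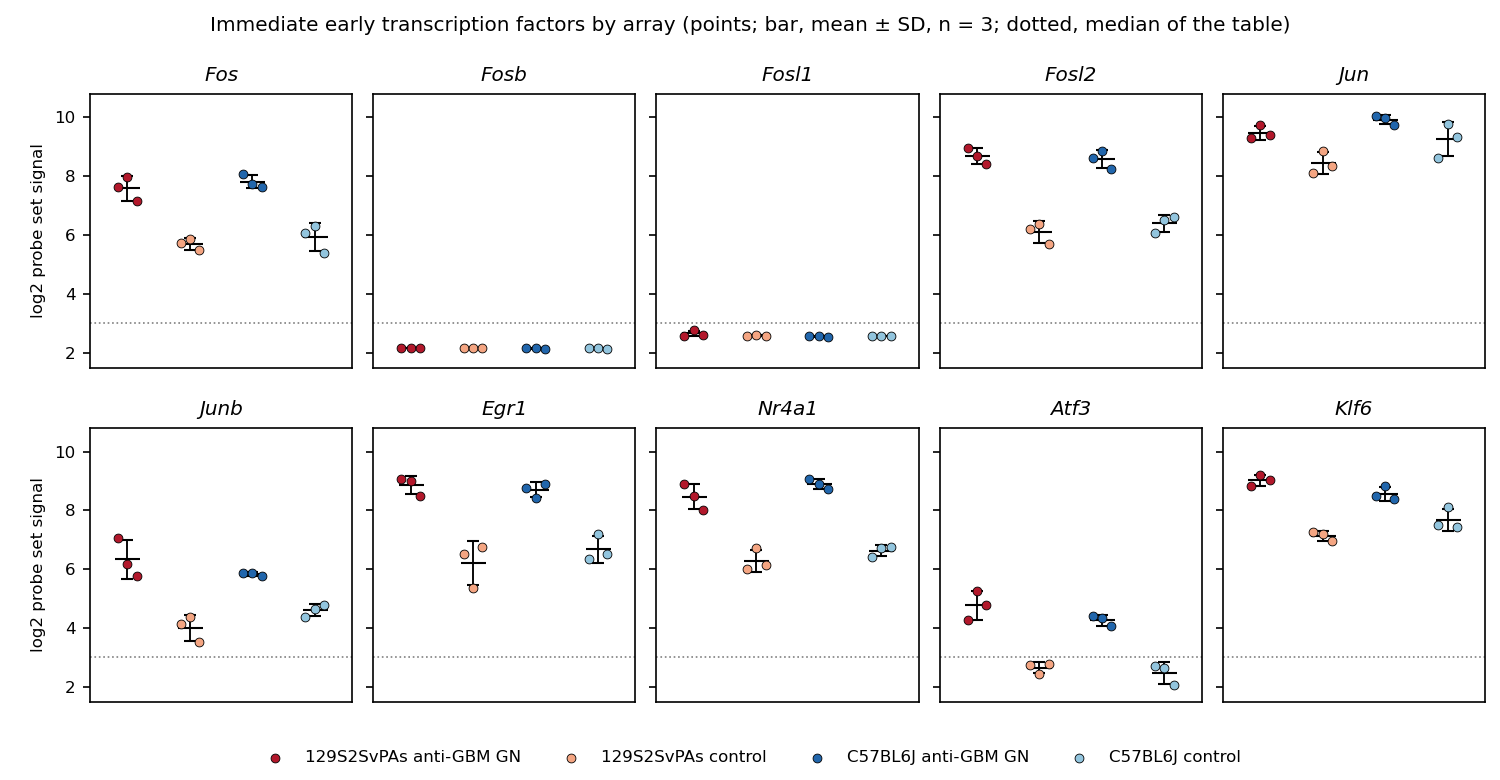
Log2 probe set signal of each of the 10 genes (vertical axis) on each array, with 3 points per group and the mean ± SD (n = 3). In 7 genes all anti-GBM GN points lie above all control points of the same strain, in Jun only those of 129S2SvPAs do, and Fosb and Fosl1 lie below the table median (dotted) on all 12 arrays.

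Of the FOS family, Fos, the prototype of the family and partner of Jun in AP-1, had signals of 7.64, 7.97 and 7.14 in 129S2SvPAs anti-GBM GN and 5.74, 5.87 and 5.48 in 129S2SvPAs controls. In C57BL6J it had 8.06, 7.73 and 7.63 in anti-GBM GN and 6.08, 6.32 and 5.40 in controls. The groups did not overlap in either strain, and the rises were almost equal, at 1.89 in 129S2SvPAs (SE 0.26, 3.70-fold, adjusted p = 0.000612 in limma) and 1.87 in C57BL6J (SE 0.26, 3.66-fold, adjusted p = 0.00163 in limma). Fosl2, which encodes FRA2, a FOS protein without the strong activation domains of FOS itself, rose more. Its signals were 8.95, 8.68 and 8.41 in 129S2SvPAs anti-GBM GN against 6.22, 6.38 and 5.68 in controls, and 8.63, 8.84 and 8.24 in C57BL6J anti-GBM GN against 6.06, 6.51 and 6.62 in controls. Every anti-GBM GN array exceeded every control array of both strains. The rise was 2.59 in 129S2SvPAs (SE 0.23, 6.01-fold, adjusted p = 5.31e-05 in limma) and 2.17 in C57BL6J (SE 0.23, 4.51-fold, adjusted p = 0.000325 in limma). A second Fosl2 probe set lay at the floor of the arrays, with group means of 2.28 to 2.41, and the mean of both probe sets gave differences of 1.32 in 129S2SvPAs and 1.12 in C57BL6J.

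Fosb and Fosl1 showed no signal above background with the probe sets on this array. The single Fosb probe set read 2.13 to 2.17 on all 12 arrays. For Fosl1, which encodes FRA1, the stronger of the probe sets read 2.55 to 2.77, with its highest value in 129S2SvPAs anti-GBM GN replicate 2. Both were left untested, and a change below the detection limit of these probe sets cannot be seen. Of the FOS family, the measured rise therefore rests on Fos and Fosl2, and the promoter windows of Fos and Fosb shown above both hold the core although only Fos had a measurable signal.

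The JUN family differed within itself. Jun, the main DNA-binding partner of FOS proteins, read 9.28, 9.73 and 9.38 in 129S2SvPAs anti-GBM GN and 8.11, 8.85 and 8.36 in 129S2SvPAs controls, which did not overlap. In C57BL6J it read 10.04, 9.98 and 9.74 in anti-GBM GN and 8.63, 9.78 and 9.34 in controls, and control replicate 2 lay above anti-GBM GN replicate 3. The difference was 1.02 in 129S2SvPAs (SE 0.28, 2.03-fold, adjusted p = 0.0237 in limma) and 0.67 in C57BL6J (SE 0.28, 1.59-fold, adjusted p = 0.19 in limma), so Jun passed the threshold in 129S2SvPAs. That call was lost without 129S2SvPAs anti-GBM GN replicate 2 or 3 (adjusted p = 0.0872 and 0.0502 in limma) and without 129S2SvPAs control replicate 1 or 3 (adjusted p = 0.0875 and 0.0642 in limma). A second Jun probe set gave differences of 0.92 in 129S2SvPAs and 0.53 in C57BL6J.

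Junb, whose product activates transcription less than JUN and can restrain it, rose in both strains. Its signals were 7.08, 6.17 and 5.77 in 129S2SvPAs anti-GBM GN against 4.13, 4.39 and 3.53 in controls. In C57BL6J they were 5.88, 5.88 and 5.76 in anti-GBM GN against 4.39, 4.66 and 4.78 in controls. The groups did not overlap, and the highest value came from replicate 1 of 129S2SvPAs anti-GBM GN. The rise was 2.32 in 129S2SvPAs (SE 0.30, 5.01-fold, adjusted p = 0.000445 in limma), or 1.95 (SE 0.23) without that array, and 1.23 in C57BL6J (SE 0.30, 2.35-fold, adjusted p = 0.0353 in limma). The C57BL6J call was lost when any single C57BL6J array was left out, with adjusted p = 0.102, 0.126 and 0.0615 in limma without anti-GBM GN replicates 1, 2 and 3 and adjusted p = 0.132, 0.087 and 0.074 in limma without control replicates 1, 2 and 3. It was also lost without 129S2SvPAs control replicate 1 (adjusted p = 0.0502 in limma), which enters only through the shared spread.

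Egr1, a zinc finger activator of growth factor and matrix genes, read 9.07, 9.01 and 8.50 in 129S2SvPAs anti-GBM GN and 6.51, 5.37 and 6.75 in 129S2SvPAs controls, of which replicate 2 was lowest. In C57BL6J it read 8.77, 8.43 and 8.91 in anti-GBM GN and 6.34, 7.20 and 6.52 in controls. It rose by 2.65 in 129S2SvPAs (SE 0.35, 6.28-fold, adjusted p = 0.000437 in limma) and by 2.02 in C57BL6J (SE 0.35, 4.05-fold, adjusted p = 0.00534 in limma), with no overlap in either strain.

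Nr4a1, the nuclear receptor, read 8.90, 8.50 and 8.02 in 129S2SvPAs anti-GBM GN against 6.01, 6.71 and 6.16 in controls, and 9.06, 8.91 and 8.72 in C57BL6J anti-GBM GN against 6.42, 6.73 and 6.75 in controls. Its rise was 2.18 in 129S2SvPAs (SE 0.24, 4.53-fold, adjusted p = 0.000146 in limma) and 2.26 in C57BL6J (SE 0.24, 4.80-fold, adjusted p = 0.000264 in limma), the largest of the 8 tested genes in C57BL6J.

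Atf3, a stress-induced member of the ATF family that represses transcription as a homodimer, was near the floor in every control. It read 4.29, 5.28 and 4.78 in 129S2SvPAs anti-GBM GN against 2.76, 2.46 and 2.78 in controls, and 4.42, 4.34 and 4.07 in C57BL6J anti-GBM GN against 2.72, 2.67 and 2.07 in controls. Only its 6 anti-GBM GN arrays exceeded the table median, so it entered the test through the groups in which it was high, and the differences of 2.12 in 129S2SvPAs (SE 0.25, adjusted p = 0.000222 in limma) and 1.79 in C57BL6J (SE 0.25, adjusted p = 0.00158 in limma) are measured from values near the floor.

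Klf6, a Krüppel-like factor induced by injury in several organs, including podocytes and tubule cells in the kidney, read 8.84, 9.20 and 9.03 in 129S2SvPAs anti-GBM GN against 7.27, 7.20 and 6.95 in controls. In C57BL6J it read 8.49, 8.82 and 8.38 in anti-GBM GN against 7.49, 8.12 and 7.43 in controls. The groups lay further apart in 129S2SvPAs, where the rise was 1.88 (SE 0.20, 3.69-fold, adjusted p = 0.000126 in limma), than in C57BL6J, where it was 0.88 (SE 0.20, 1.84-fold, adjusted p = 0.0221 in limma). The C57BL6J call was lost without anti-GBM GN replicate 1 or 2 (adjusted p = 0.0559 and 0.105 in limma) and without control replicate 1 or 3 (adjusted p = 0.0924 and 0.0866 in limma). Klf6 had 5 probe sets. Of these, 4 gave differences of 1.81 to 2.34 in 129S2SvPAs and 0.88 to 1.17 in C57BL6J, and the dimmest, of a type that can bind related transcripts, gave 0.45 and 0.20.

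None of the 8 tested genes was called lower in either strain, while 9.76% of all genes tested were called lower in 129S2SvPAs and 2.31% in C57BL6J. Because Atf3 was tested only through its high groups, the counts of genes that rose were 7 of 7 and 6 of 7 without it. The median difference of the 8 tested genes was 2.15 in 129S2SvPAs and 1.83 in C57BL6J, against 0.00 and -0.03 over all genes tested. Without 129S2SvPAs anti-GBM GN replicate 1 the 8 calls in 129S2SvPAs remained, with differences of 1.12 for Jun to 2.55 for Egr1 and adjusted p = 0.0299 or lower in limma. When the mean of the proximal tubule markers entered the fit, 5 of the 7 C57BL6J calls remained, without Junb and Klf6, whereas none of the 8 in 129S2SvPAs passed in limma, with differences of 1.28 for Jun (adjusted p = 0.359) to 2.77 for Fosl2 (adjusted p = 0.0576). In that fit 80 of all genes tested passed in 129S2SvPAs, against 2424 without the covariate, and the mean of the markers did not overlap between the 129S2SvPAs groups.

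**Figure D3:**
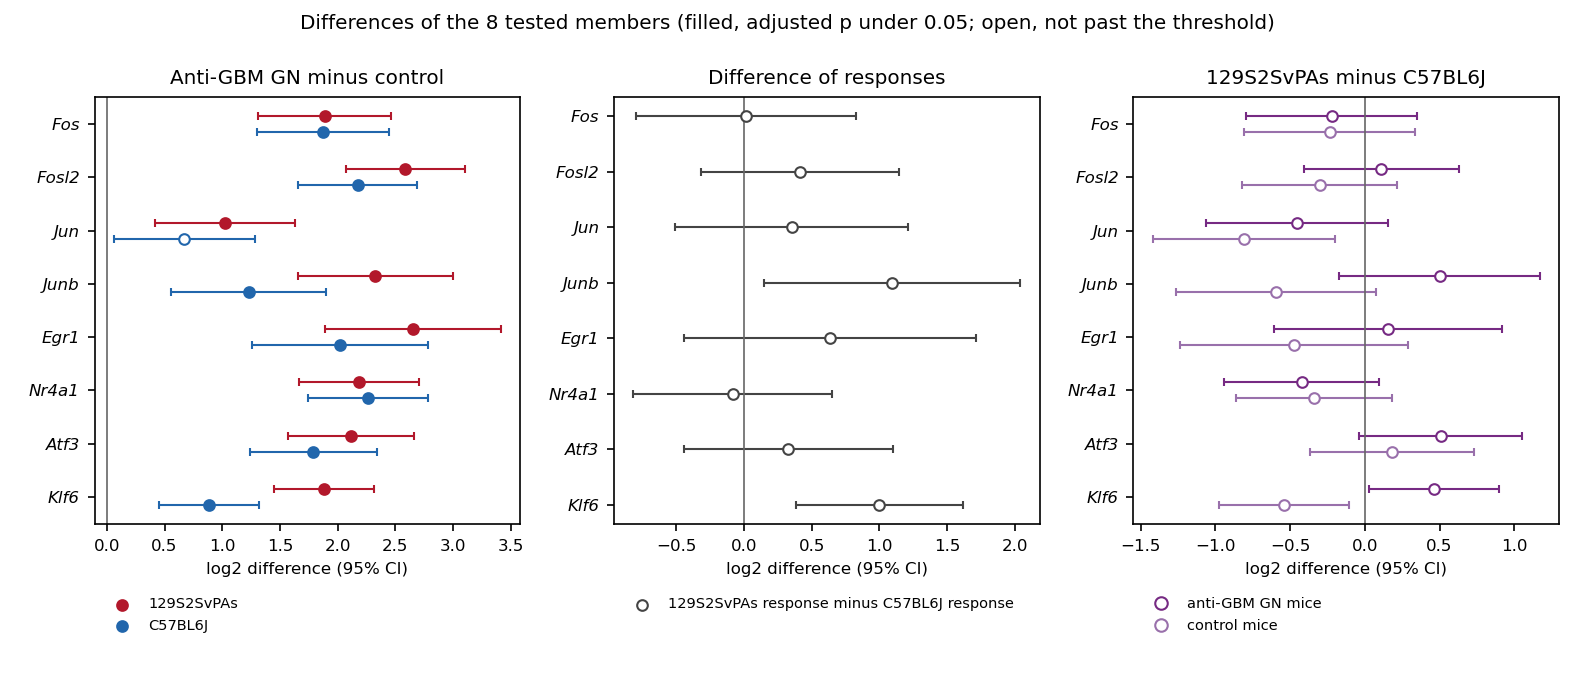
Log2 differences of the 8 tested genes with 95% confidence intervals (horizontal axes), for the response of each strain, anti-GBM GN minus control (left), the 129S2SvPAs response minus the C57BL6J response (middle) and 129S2SvPAs minus C57BL6J within each condition (right). Filled circles passed an adjusted p of 0.05 in limma, which 8 did in 129S2SvPAs, 7 in C57BL6J and 0 in the other panels.

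The difference of the responses asked whether strain altered the rise. The number of the 8 tested genes that passed was 0 in limma, against 0.562% of all genes tested, and 2 had an unadjusted p under 0.05, which 10.9% of all genes had. These were Klf6, whose rise was 2-fold larger in 129S2SvPAs (SE 0.28 and 95% interval 0.39 to 1.61 on the log2 scale, adjusted p = 0.184 in limma), and Junb, with a log2 difference of 1.09 (SE 0.43, 95% interval 0.14 to 2.04, adjusted p = 0.38 in limma). Without 129S2SvPAs anti-GBM GN replicate 1 they were 1.09 (adjusted p = 0.135 in limma) and 0.72 (adjusted p = 0.332 in limma). For Fos the difference was 0.01 with a 95% interval of -0.80 to 0.83, and for Nr4a1 -0.08 with -0.82 to 0.65, so differences of these sizes are within the error of these arrays. Egr1, Fosl2, Jun and Atf3 lay between 0.33 and 0.63, with intervals that include 0. The responses share no arrays, but they share 1 estimate of each gene's spread.

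Between the strains, none of the 8 tested genes passed in limma in either condition, while 8.38% of all genes tested passed in anti-GBM GN and 8.43% in controls. In anti-GBM GN mice the differences of 129S2SvPAs minus C57BL6J ran from -0.46 for Jun to 0.51 for Atf3, 5 of the 8 were positive, and without 129S2SvPAs anti-GBM GN replicate 1 they ran from -0.64 for Nr4a1 to 0.75 for Atf3 (adjusted p = 0.0699 in limma). With all arrays 1 (Klf6) had an unadjusted p under 0.05, as 21.4% of all genes had. In control mice 7 of the 8 were negative, from -0.81 for Jun to -0.24 for Fos, with Atf3 at 0.18, and 2 (Jun and Klf6) had an unadjusted p under 0.05, as 22.3% of all genes had. The median of the 8 was -0.41, against -0.003 over all genes tested. The 8 genes were read on the same arrays, so their shared sign is not 8 separate observations. Jun averaged 8.44 ± 0.38 in 129S2SvPAs controls and 9.25 ± 0.58 in C57BL6J controls (SD, n = 3 each), with adjusted p = 0.104 in limma. It passed with the replicate number as a block (adjusted p = 0.0409 in limma) and without C57BL6J control replicate 1 (-1.12, adjusted p = 0.0226 in limma). Klf6 averaged 7.14 ± 0.17 in 129S2SvPAs controls and 7.68 ± 0.38 in C57BL6J controls, which did not overlap, and 9.02 ± 0.18 in 129S2SvPAs anti-GBM GN and 8.56 ± 0.23 in C57BL6J anti-GBM GN, which did not overlap either and lay the other way round (SD, n = 3 each). Of all genes tested, 27.9% did not overlap between the strains in anti-GBM GN and 31.6% in controls. Jun was the other gene without overlap in anti-GBM GN, at 9.46 ± 0.24 in 129S2SvPAs and 9.92 ± 0.16 in C57BL6J (SD, n = 3 each). All 6 podocyte markers tested were lower in 129S2SvPAs controls than in C57BL6J controls in limma, with a median of -1.54, and the 7 endothelial markers had a median of -1.22 with 1 call. Their part in the strain differences was not tested.

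Within groups, the 8 tested genes did not all vary together from mouse to mouse. Deviations from the group means over the 12 arrays had Pearson's r = 0.817 for Junb and Nr4a1, 0.805 for Fosl2 and Junb and 0.713 for Fosl2 and Nr4a1. Atf3 ran against these 3, with r = -0.596 to Junb, -0.412 to Nr4a1 and -0.342 to Fosl2. Of the 28 pairs 21 had a positive r, with a median of 0.224. Without replicate 1 of 129S2SvPAs anti-GBM GN, in which Junb and Nr4a1 were highest and Atf3 lowest of its group, the negative values of Atf3 shrank to -0.20 for Junb, -0.053 for Nr4a1 and -0.14 for Fosl2, and Fosl2 and Junb had r = 0.875 over 11 arrays. The genes share arrays, and the values are a description.

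Related genes were listed with earlier results of these data known. Beside their counts, 10.6% of all genes tested rose in 129S2SvPAs and 4.78% in C57BL6J. In 129S2SvPAs the proximal tubule covariate left at most 1 call in each of the 7 related lists. Of 10 tested leucine zipper partners 5 rose in 129S2SvPAs and 4 in C57BL6J, with medians of 1.03 and 0.65. The C57BL6J count was 1 to 5 when single arrays were left out (1 without anti-GBM GN replicate 1 or 2 or control replicate 1 or 3, 2 without 129S2SvPAs control replicate 2) and 1 without a filter or with the covariate. Maff, a small MAF protein without an activation domain, rose by 2.65 in 129S2SvPAs (SE 0.29) and by 3.01 in C57BL6J (SE 0.29), from control means of 2.86 and 2.56 near the floor, and it was tested through its anti-GBM GN arrays. Crem, a cyclic AMP responsive modulator, rose by 2.22 (SE 0.28) and 1.24 (SE 0.28), and Atf4, the factor of the integrated stress response, by 1.05 (SE 0.15) and 0.59 (SE 0.15). The mean of a gene's probe sets gave C57BL6J differences of 0.51 for Crem (adjusted p = 0.0578 in limma) and 0.29 for Atf4 (adjusted p = 0.377 in limma). The C57BL6J count of the leucine zipper partners was then 2. Of 9 sister genes of Egr1, Nr4a1 and Klf6, 3 rose and 1 fell in 129S2SvPAs and 2 rose in C57BL6J, where the count was 1 without anti-GBM GN replicate 1 or 2 or control replicate 1 or 3. In 129S2SvPAs 2 were called without anti-GBM GN replicate 2 or control replicate 3. Klf4, a factor of quiescent endothelium and podocytes, rose by 3.10 in 129S2SvPAs (SE 0.36) and by 1.71 in C57BL6J (SE 0.36), and Nr4a2 by 1.41 (SE 0.36) and 1.89 (SE 0.36). Klf5, the other gene counted as higher in 129S2SvPAs, averaged 3.97 in 129S2SvPAs anti-GBM GN and 2.76 in 129S2SvPAs controls, and it exceeded the table median on the arrays of 129S2SvPAs anti-GBM GN alone, so it was tested only through the group in which it was high. Without single arrays the C57BL6J calls of Crem, Atf4 and Klf4 were lost, at the highest with adjusted p = 0.102, 0.146 and 0.0772 in limma, and so was the 129S2SvPAs call of Nr4a2 (adjusted p = 0.0691 in limma, and 0.0642 without a control array).

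Upstream, serum response factor itself (Srf) rose by 0.87 in 129S2SvPAs (SE 0.20, adjusted p = 0.0105 in limma). Of the 8 genes of its list 2 rose there, or 1 without anti-GBM GN replicate 2 or 3 or control replicate 1. The 129S2SvPAs count was 4 without control replicate 2, 5 with array weights and 0 with the covariate. In C57BL6J the count was 0 of 8 in limma, also with array weights, with 1 at an unadjusted p under 0.05 and a median of 0.24. Of 17 other immediate early genes 11 rose in 129S2SvPAs and 8 in C57BL6J, with medians of 1.55 and 0.76. The C57BL6J count was 4 without C57BL6J anti-GBM GN replicate 2, 5 without replicate 1 or control replicate 3 and 3 with the covariate, and the 129S2SvPAs count was 12 without 129S2SvPAs anti-GBM GN replicate 1, with 1 lower, and 1 with the covariate. Ccn1, a secreted matricellular protein, rose by 3.93 (SE 0.23) in 129S2SvPAs and 3.48 (SE 0.23) in C57BL6J, and Phlda1 by 2.09 (SE 0.18) in C57BL6J. Ptgs2, which encodes cyclooxygenase 2, rose by 2.26 (SE 0.22) in 129S2SvPAs from a control mean of 2.91 near the floor. It exceeded the table median on 1 array of each control group, so it was tested through its anti-GBM GN arrays. Of 13 tested feedback regulators, 4 rose in 129S2SvPAs and 0 in C57BL6J in limma, with medians of 0.45 and 0.33. In C57BL6J 6 had an unadjusted p under 0.05 in limma, 5 rose with array weights and 1 fell with the replicate block. Socs3, which restrains STAT3 signalling, rose by 1.85 (SE 0.26) and Spry2, an inhibitor of growth factor signalling, by 0.98 (SE 0.15) in 129S2SvPAs.

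Downstream, 8 of the AP-1 target genes were tested. In 129S2SvPAs 6 rose and 1 fell, with a median of 1.63, and in C57BL6J 4 rose and 1 fell, with a median of 1.15. Without 129S2SvPAs anti-GBM GN replicate 1 the numbers in 129S2SvPAs were 5 and 1. Of the 5 calls in C57BL6J 2 were left without anti-GBM GN replicate 1 or 2 or control replicate 1, and 3 without control replicate 2 or 3, 129S2SvPAs anti-GBM GN replicate 3 or 129S2SvPAs control replicate 1. Timp1, a metalloproteinase inhibitor, averaged 5.52 in 129S2SvPAs anti-GBM GN and 2.42 in 129S2SvPAs controls, and 3.61 in C57BL6J anti-GBM GN and 2.27 in C57BL6J controls. It exceeded the table median on no control array, so it was tested only through its high groups and its differences are measured from the floor. Hmox1, heme oxygenase 1, rose by 4.03 in 129S2SvPAs (SE 0.39), and Mmp14, a membrane-bound metalloproteinase, by 1.05 in C57BL6J (SE 0.20). Ccnd1 was called in neither strain, and Hmox1 and Hbegf were not called in C57BL6J. Plau, which encodes urokinase, was the only one called lower and fell by 1.40 in 129S2SvPAs (SE 0.30, adjusted p = 0.00784 in limma) and by 1.23 in C57BL6J (SE 0.30, adjusted p = 0.034 in limma). The activity of AP-1 was not measured. The C57BL6J call of Plau was lost without each anti-GBM GN replicate and without control replicate 1, with adjusted p up to 0.136 in limma. Timp1 was also the 1 call of these lists in the difference of responses, 1.75 with that limit (SE 0.28, adjusted p = 0.0307 in limma), or 2.01 when 129S2SvPAs anti-GBM GN replicate 1 was dropped (adjusted p = 0.00214 in limma), and the call was lost without any single array except 129S2SvPAs anti-GBM GN replicates 1 and 3 (adjusted p up to 0.102 in limma).

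Heat shock genes, which respond to tissue handling as well as to disease, were listed for comparison. The part of handling in these values, or in those of the immediate early transcription factors, was not tested. Of 10 tested, 3 rose in 129S2SvPAs and 0 in C57BL6J in limma, where 3 had an unadjusted p under 0.05, 1 rose and 1 fell with array weights and 1 rose with the replicate block, with medians of 0.17 and -0.01. In 129S2SvPAs 1 was called without anti-GBM GN replicate 2 or control replicate 1. Hspb1, a small heat shock protein of podocytes and other cells, rose by 2.96 in 129S2SvPAs (SE 0.44). Among the others that passed there, Bag3 rose by 0.75 (SE 0.19) and Hsp90aa1 by 0.42 (SE 0.12), and the calls of these 2 were lost without 129S2SvPAs anti-GBM GN replicate 2 (adjusted p = 0.0507 and 0.105 in limma) and without other arrays.

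**Figure D4:**
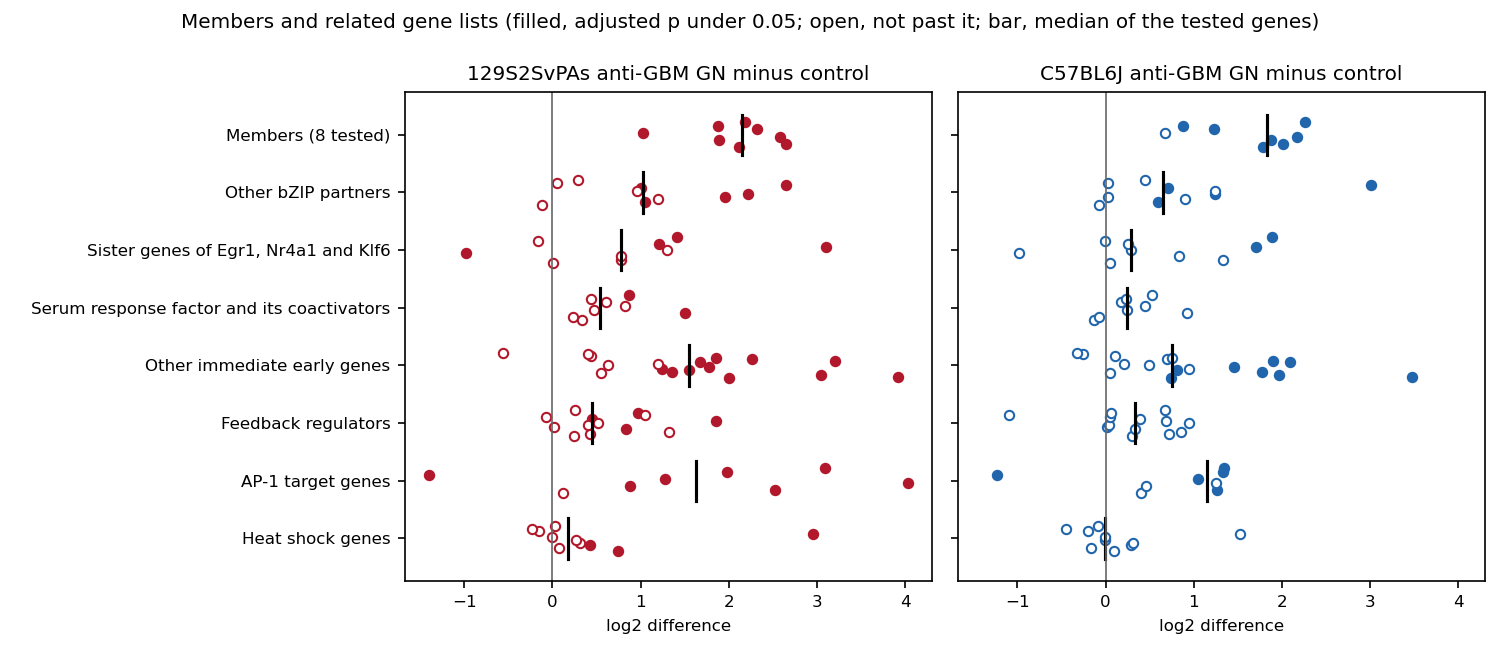
Log2 difference of anti-GBM GN minus control (horizontal axes) for each tested gene of the group and of 7 related lists, in 129S2SvPAs (left) and C57BL6J (right), with bars at the medians. The medians of the 8 tested factors, 2.15 and 1.83, lie to the right of those of the 7 lists.

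The genes whose pattern over the 12 arrays was most like the mean standardised signal of the 8 tested factors were Apold1 (Pearson's r = 0.988), an endothelial early response gene, Cavin1 (r = 0.987), a coat protein of caveolae, Cald1 (r = 0.987), the actin-binding protein caldesmon, the intermediate filament gene Vim (r = 0.986) and Phlda3 (r = 0.985), a p53-induced inhibitor of AKT. Without replicate 1 of 129S2SvPAs anti-GBM GN their r lay between 0.983 and 0.992. The arrays fall into anti-GBM GN and control, which all these genes separate, and the values describe that. Apold1 averaged 8.43 ± 0.10 in 129S2SvPAs anti-GBM GN and 3.02 ± 0.15 in 129S2SvPAs controls, and 8.15 ± 0.56 in C57BL6J anti-GBM GN and 4.55 ± 0.58 in C57BL6J controls (SD, n = 3 each).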

How the data were processed

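RNA of isolated glomeruli from 12 mice was hybridised to Affymetrix arrays per the labels' protocols, 1 array per mouse, with 3 mice in each of 4 groups. The deposited values are log2 signals of 45037 probe sets. The submitters' processing notes name MAS5 and GCRMA, without version or role, and which of them made the values is not stated. That they are log2 was taken from their range, 1.12 to 15.02, and no centring was seen. Array and scan dates are not given in the sources used here, so no batch was tested, and precision is limited by the number of arrays.

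GEO's annotation of the platform gave gene symbols, of which 34957 probe sets had 1, 920 several and 9160 none. The probe set with the highest mean represented each gene, and limma 3.58.1 (R 4.3.3) tested 11921 genes, with 1 mean per group over all 12 arrays and 10.7 total degrees of freedom. P-values were Benjamini-Hochberg adjusted over all genes within each of 5 contrasts and called under 0.05. The fit was tested on simulated data. Members, lists and contrasts were chosen with earlier results of these data known. The text names all 10 members, per related list up to 3 called genes with the lowest p in each response and in the difference of responses, and the 5 genes most like the members. The strain differences of listed genes in the closing section were chosen after their values were seen. Alternatives were quantile normalization, array medians made equal, testing every gene, requiring 6.06 (the 75th percentile) in place of 3.03, averaging a gene's probe sets, array weights, the groups compared alone, the replicate number as a block, the proximal tubule markers as a covariate, and leaving out each array. Correlations without 129S2SvPAs anti-GBM GN replicate 1 were added after seeing the data. Same-numbered arrays deviated together across genes in the C57BL6J comparison (r = 0.208, 0.241 and 0.33) and between controls (0.244, 0.284 and 0.239), but not in the other comparisons (down to -0.38 between anti-GBM GN groups). The pairing comes from the replicate numbers in the titles. Figures were drawn with matplotlib 3.10.9.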

Additional observations from a re-analysis of the deposited data

How the results depend on the processing

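The number of the 10 genes called in 129S2SvPAs was 8 and became 0 with the proximal tubule covariate, and 7 or 8 when single arrays were left out. In C57BL6J it was 7, and 5 to 7 when single arrays were left out. It was 0 for the difference of responses under every alternative run, including the replicate block. Between controls it was 0, became 1 (Jun) with the replicate block, and 0 or 1 when single arrays were left out. Between anti-GBM GN groups it was 0, became 1 with array weights (Atf3, 0.78, adjusted p = 0.0221 in limma), and stayed 0 when single arrays were left out. The block changed no other call among the 10 genes.

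Values close to 0 changed sign without passing the threshold. For the difference of responses of Fos these were -0.11 with quantile normalization, -0.31 with the proximal tubule covariate, and a range of -0.18 to 0.28 among the arrays left out singly. For Nr4a1 it was 0.016 with the covariate and -0.30 to 0.14 among the arrays left out, and for Atf3 -0.061 with the covariate. The Atf3 difference between controls was -0.028 without C57BL6J control replicate 3 and up to 0.30 without other arrays. The Fosl2 difference between anti-GBM GN groups was -0.050 with array weights and -0.055 and -0.025 without C57BL6J anti-GBM GN replicate 3 or 129S2SvPAs anti-GBM GN replicate 1, and up to 0.245 without others. Without a filter the calls of Junb in C57BL6J (adjusted p = 0.0817 in limma) and Jun in 129S2SvPAs (adjusted p = 0.0546 in limma) were lost, where more genes were tested, and Klf6 in C57BL6J was lost in the fit of the groups compared alone (adjusted p = 0.0584 in limma). Of 822 values of the 8 tested genes under alternatives, 773 kept direction and side of the threshold. These values include the difference of responses and both strain differences, where 0 of the genes were called in the main fit. Of 728 counts for the related lists 581 stayed within 1.5 times.

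The number of all genes called moved by over 1.5 times with array weights, to 3830 in 129S2SvPAs (2424 otherwise) and to 2021 (845 otherwise) in C57BL6J, with the covariate to 80 and 468, and with the groups compared alone to 1415 in 129S2SvPAs. Among arrays left out singly it ran from 407 to 1141 in C57BL6J. For the difference of responses, with 67 calls, it was 18 with the stricter filter, 286 with array weights, 33 with the replicate block, 5 with the covariate and 15 to 136 among the arrays left out. Between controls, with 1005 calls, it was 1601 with array weights, 640 with the covariate and 503 to 1288 among the arrays left out, and between anti-GBM GN groups, with 999 calls, 2256, 556 and 612 to 1117, and 578 with the groups compared alone. The cause was not tested.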

Other observations

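Some genes of the related lists differed between strains in limma and are named here after their values were seen. Of all genes tested, 8.38% passed between the strains in anti-GBM GN and 8.43% in controls. In anti-GBM GN mice Ptgs2, which encodes cyclooxygenase 2, averaged 5.17 ± 0.32 in 129S2SvPAs and 3.63 ± 0.37 in C57BL6J (SD, n = 3 each), a difference of 1.54 (SE 0.22, adjusted p = 0.00145 in limma), or 1.70 without 129S2SvPAs replicate 1 (adjusted p = 0.00144 in limma). Hmox1, heme oxygenase 1, averaged 9.30 ± 0.89 in 129S2SvPAs and 6.98 ± 0.44 in C57BL6J (difference 2.32, SE 0.39, adjusted p = 0.004 in limma), or 2.73 higher without that array (adjusted p = 0.00102 in limma). In control mice 3 of the 13 tested feedback regulators, Spry1, Socs3 and Dusp6, were lower in 129S2SvPAs. The differences were -2.02 (SE 0.42), -1.07 (SE 0.26) and -0.72 (SE 0.18), with adjusted p = 0.0145, 0.0292 and 0.0307 in limma. These 3 calls were lost without C57BL6J control replicate 2 (adjusted p = 0.0672, 0.0635 and 0.108 in limma). With the groups compared alone they were lost too (adjusted p = 0.0858, 0.111 and 0.115 in limma). Those of Socs3 and Dusp6 were also lost without other control arrays. Btg2, Rhob and Hspb1 were called lower in 129S2SvPAs controls as well. Timp1, Cebpd, Spry2 and Klf5 were called higher in 129S2SvPAs anti-GBM GN, Timp1 and Klf5 with the limits given above.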
